A study of Drosophila melanogaster with 2 samples.

Results

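Lola (longitudinals lacking) is a BTB zinc finger transcription factor whose isoforms share a BTB dimerisation domain and carry different zinc fingers, and it is known for roles in axon guidance, stem cell maintenance and gene repression. Its ChIP-seq peaks in Drosophila S2 cells, a cultured line derived from embryos, are described here where they lay inside genes or on their near flanks. These were the 249 of 939 deposited peaks that the authors annotated neither as a promoter within 1 kb of a transcription start site (TSS) nor as distal intergenic, leaving out the histone gene repeat. The series held 1 Lola ChIP library and 1 input DNA library, both from cross-linked, sonicated S2 chromatin with no treatment, so replicate error could not be measured. Lola is named in the ChIP library's title and protocol, whereas its antibody field names the histone mark H3K4me2, and this conflict was not resolved. The comparison peaks were the 366 promoter peaks outside the histone repeat and the 232 distal intergenic peaks.

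Sites inside genes can be enhancers that act on the host gene or on a neighbour, and sites just past a gene's end can belong to either gene beside them. A peak's class therefore says where it lay and not which gene it acts on. A peak counted as multi-copy if 50% or more of the 31-base words in it had another copy in the release 6 genome, since a read from such sequence has no single place of origin. The 249 peaks split into 132 single-copy and 117 multi-copy peaks, and most of what follows depended on that split.

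The 6-base word AAAGCT, read on both strands, was searched within 50 bp of each summit. It was picked earlier from the whole peak list, these peaks included, so its presence near summits is a description. When TT follows the word, the same bases read as the word on both strands. Single-copy 100-bp windows across the genome held the word in 6.24% of cases, with 6.73% in later introns, 6.52% in first introns, 4.99% in exons and 6.06% at 1 to 3 kb from a TSS. The 30 bases around the word nearest the summit are printed for 20 single-copy peaks, to let the word be seen in its setting. They cover introns, exons, the 1 to 3 kb flanks and downstream peaks, and no UTR peak is printed. They come from the reference genome (release 6), are written on the strand where the word reads AAAGCT, and carry the word in capitals.
Eip75B, later intron, chr3L:18019797-18019826, minus strand: tgtcttcttcagAAAGCTctgagttgctga
Eip74EF, later intron, chr3L:17596947-17596976, minus strand: ttaggttcattaAAAGCTcaagtatattgt
Eip74EF, first intron, chr3L:17603873-17603902, plus strand: atagactatagtAAAGCTatgcaaaatgcg
ftz-f1, later intron, chr3L:18791390-18791419, plus strand: ggtcgaccggcaAAAGCTccacaatttgcc
Pdp1, later intron, chr3L:7837269-7837298, minus strand: caactgaaacggAAAGCTggccgaagcttt
Gfrl, later intron, chr3R:20464534-20464563, plus strand: tttactactatcAAAGCTctttgcaataag
dnc, later intron, chrX:3285478-3285507, minus strand: gtgccattttccAAAGCTctgggttcgtcg
chinmo, later intron, chr2L:1657260-1657289, plus strand: catgaaatcaagAAAGCTtcactgcaaatc
Smr, later intron, chrX:12710073-12710102, plus strand: ccaaaaaaaataAAAGCTtgcgcacaggat
CG11905, exon, chr3L:16930655-16930684, minus strand: ggagaaaccagaAAAGCTacaggctctgcc
CG31869, exon, chr2L:10774206-10774235, minus strand: caccgagagcttAAAGCTcatcgcctcggt
Alp13, 1 to 2 kb of the TSS, chr3R:10076830-10076859, minus strand: ctcgctcgtcaaAAAGCTcactcgggggct
CG34342, 1 to 2 kb of the TSS, chr3L:5512112-5512141, plus strand: gcaagaaacttgAAAGCTcttcgaccatct
Men, 1 to 2 kb of the TSS, chr3R:12723990-12724019, minus strand: tccaacgcaaacAAAGCTtttaagctttta
SkpA, 1 to 2 kb of the TSS, chrX:658248-658277, plus strand: tgttgcttttaaAAAGCTacgacgggtgtg
snu, 2 to 3 kb of the TSS, chr3R:28677866-28677895, minus strand: tgaattcaataaAAAGCTtatgtataagcg
sll, 2 to 3 kb of the TSS, chr3R:17603755-17603784, minus strand: ggaaaagcacgaAAAGCTcaccgaagtcta
FASN1, 2 to 3 kb of the TSS, chr2L:3059437-3059466, plus strand: ctccagagagcgAAAGCTctgcgcttgcgg
CG18480, downstream, chr2L:15643981-15644010, plus strand: gcagctttggtaAAAGCTtttagacatact
SP1173, downstream, chr3L:6689066-6689095, minus strand: tagccgtttgtaAAAGCTgaataagaattg

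The depth behind each peak could be worked out from the deposited values. The fold enrichment equalled the fragment height plus 1 over the background plus 1, and the −log10 p was the Poisson tail of that height. A whole-number height gave the −log10 p of all 939 peaks, with a largest error of 0.00016. Heights ran from 48 to 400 fragments. The lowest background was 25.519 fragments, shared by 183 peaks, 42 of them among the 249. The intervals of fold enrichment given below are exact 95% Poisson intervals on the height, and like the Wilson intervals on shares they cover counting error only. No source used here says whether the background came from the input or from the ChIP library.

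Of the 249 peaks, 93 (37.3%) reached a fold enrichment of at least 2, against 47.8% of all 939 peaks. The single-copy share was 53.0% (132 of 249), against 94.3% of promoter peaks (345 of 366, Fisher's exact test, 2-sided, adjusted p = 3.61e-33) and 16.8% of distal peaks (39 of 232, exact test, adjusted p = 1.78e-16). The tests count peaks as independent, although multi-copy peaks can share sequence. The compared regions also differ in repeat content. Of 300-bp tiles of the genome, 3.34% were multi-copy within 1 kb of a TSS, 4.53% at 1 to 3 kb and 2.78% in exons. The share was 12.7% in first introns, 20.1% in later introns and 39.35% in intergenic sequence. The tests do not allow for these differences. With peaks under 1000 bp apart joined, 67.5% of 194 peaks were single-copy. The difference was then -27.5 percentage points from promoter peaks and 46.3 points from distal peaks. Without joining, these differences were -41.25 and 36.2 points. Among single-copy peaks only, 65.2% of the gene-body and flank peaks reached a fold enrichment of 2 (86 of 132), against 84.6% of promoter peaks (292 of 345, exact test, adjusted p = 2.21e-05). This call was lost at a limit of 3-fold (40.9% against 43.5%, exact test, adjusted p = 1.0) and among peaks with a background under 2 times its lowest value (84.3% against 91.6%, exact test, adjusted p = 0.0887). Among peaks with a −log10 p of at least 10 the shares were 97.3% and 98.1% (exact test, adjusted p = 0.845). That limit cannot decide the question, since it nearly fixes the share at 2-fold. At the lowest background, a peak of 2.30-fold had a −log10 p of 8.74. Among single-copy distal peaks the share at 2-fold was 53.8% (21 of 39), a difference that did not pass the test (exact test, adjusted p = 0.332). All p-values from these tests were adjusted over 9 comparisons, and they compare peaks within 1 library.

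The classes differed in both respects. The 92 peaks at 1 to 3 kb from a TSS were mostly single-copy (74), as were the exon peaks (13 of 13), the 3′UTR peaks (6 of 7), the 5′UTR peaks (3 of 3) and the downstream peaks (8 of 10). The 124 intron peaks were mostly multi-copy (96). Among single-copy peaks, the median fold enrichment was 3.05 at 2 to 3 kb and 2.87 at 1 to 2 kb from a TSS, 3.07 downstream of genes, 2.30 in 3′UTRs, 2.09 in later introns, 2.06 in 5′UTRs and 1.76 in exons. The highest single-copy peaks were in introns, where fold enrichment reached 8.11, and in exons, where it reached 7.96, against highest values of 10.068 among single-copy promoter peaks and 8.45 among single-copy distal peaks.

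**Figure D1:**
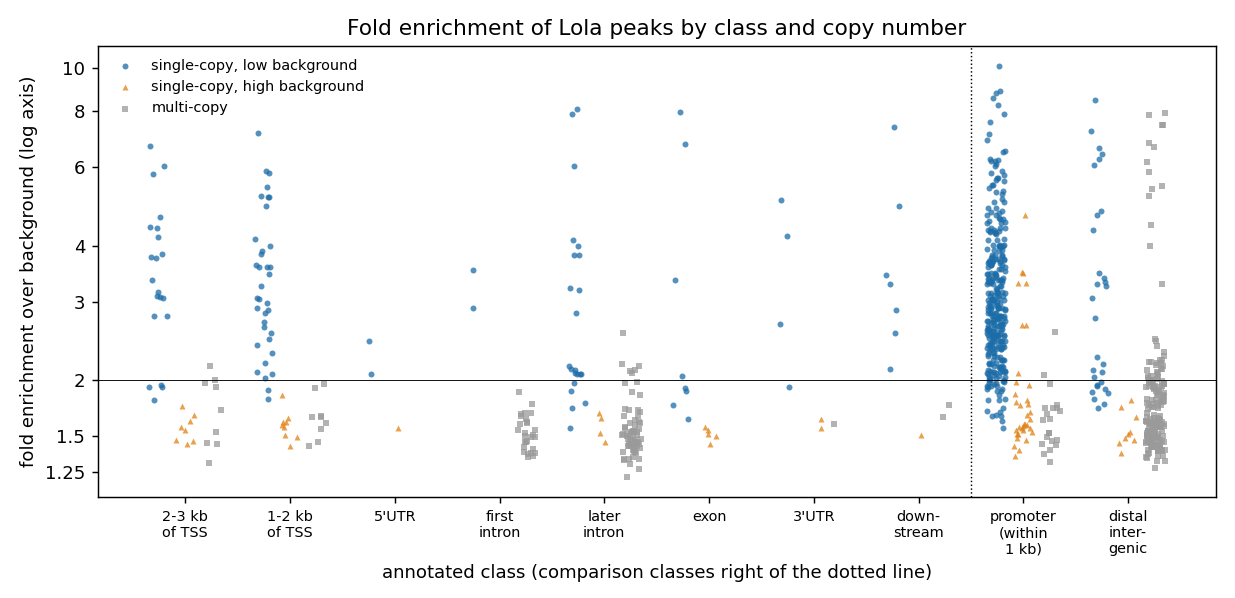
Fold enrichment over background (log axis) of each Lola peak by annotated class, with promoter and distal peaks to the right of the dotted line. Points are peaks, coloured by copy class and by whether the background was under 2 times its lowest value; the intron columns are filled mainly by multi-copy peaks under a fold enrichment of 2, while single-copy peaks reach 8.11.

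The strongest intronic peaks lay in genes of the ecdysone response, the steroid cascade that times moulting and metamorphosis. In Eip75B, which encodes a nuclear receptor, a peak in intron 3 of 7 (chr3L:18019620-18019980) had 220 fragments over a background of 27.056, a fold enrichment of 7.88 (6.87 to 8.98). In Eip74EF, which encodes an ETS-domain transcription factor, the peak in intron 5 of 7 (chr3L:17596814-17597212) had 214 fragments over 25.519, a fold enrichment of 8.11 (7.06 to 9.26). These intervals overlap. A weaker peak in intron 1 of Eip74EF (chr3L:17603768-17604081) had 100 fragments over 33.820 and a fold enrichment of 2.90 (2.37 to 3.52). The peak in intron 2 of 9 of ftz-f1 (chr3L:18791110-18791744), whose product is the nuclear receptor that sets competence for the prepupal ecdysone response, had 159 fragments over 25.519 and a fold enrichment of 6.03 (5.14 to 7.04). All 4 held the word within 50 bp of the summit. They were the single-copy peaks of the ecdysone list, which has 26 genes in the reference.

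Over all 28 single-copy intron peaks, those of the ecdysone genes included, the word was found mainly at higher fold enrichment. Of the 10 with a fold enrichment of at least 3, 9 held the word, against 3 of the 9 from 2 to under 3 and 0 of the 9 under 2. Besides the ecdysone genes, those with the word and at least 3-fold were in Pdp1, a bZIP factor of the circadian clock (4.11), Gfrl, a GDNF receptor homologue (3.997), dnc, the cAMP phosphodiesterase (3.81), CG43066 (3.81), Smr, a corepressor of nuclear receptors (3.22), and chinmo, a BTB zinc finger factor (3.18, 2.59 to 3.85). The gene with at least 3-fold and no word near the summit was CG3635, in its first intron (chr2L:22179609-22180170, 124 fragments over 34.497, fold enrichment 3.52), with the nearest word 270.5 bp away. Pdp1, Gfrl, dnc, CG43066 and Smr are named although their values had already been seen, as are several hosts of weak exon peaks. At the low end, Ir41a, an ionotropic receptor gene, had peaks of 2.07 and 1.56, and luna, which encodes a Krüppel-like factor, had peaks of 2.12 and 1.46. None of these 4 held the word within 50 bp of the summit.

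Few single-copy peaks were annotated to first introns. The authors' annotation put 30 intron peaks in a first intron and 94 in a later one, and 2 of the first-intron peaks against 26 of the later-intron peaks were single-copy (6.67% against 27.7%, Fisher's exact test, adjusted p = 0.0497). For the genome, a base was counted as first-intron if first in any transcript, which is wider than the authors' numbering. On that count, first introns hold 34.8% of the intronic bases that lie over 3 kb from any TSS. They hold 36.8% of the single-copy 300-bp tiles there and 25.2% of the multi-copy ones. The call was lost in an alternative that changed both the numbering and the set of peaks. The annotation names 1 transcript per peak. The alternative took all of the 249 peaks with a summit in an intron, whatever their annotated class. It numbered an intron as first if first in any transcript. The shares were then 39.6% of 53 against 32.7% of 101 (exact test, adjusted p = 0.477), and the 2 changes cannot be told apart there. Within the annotated intron peaks, 4 of the 28 single-copy and 28 of the 96 multi-copy peaks lay in the first intron of at least 1 transcript. With 2 single-copy first-intron peaks, neither the share at 2-fold (2 of 2 against 17 of 26) nor the share with the word (1 of 2 against 11 of 26) could be told apart from that of later introns (exact test, adjusted p = 1.0 for both).

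Host genes of intronic peaks were long. The 25 hosts of single-copy intron peaks had a median length of 58339 bp (8577 to 1965857 bp), against a median of 2164.5 bp for the 13968 protein-coding genes. A base picked from introns over 3 kb from a TSS lies in a gene with a median length of 62952 bp, so the length of these hosts was close to that of the introns available. The hosts of multi-copy intron peaks were longer, with a median of 115237 bp over 29 genes. The 124 intron peaks fell in 54 host genes, 36 of them with 1 peak, while the 5 hosts with most peaks held 53.

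**Figure D2:**
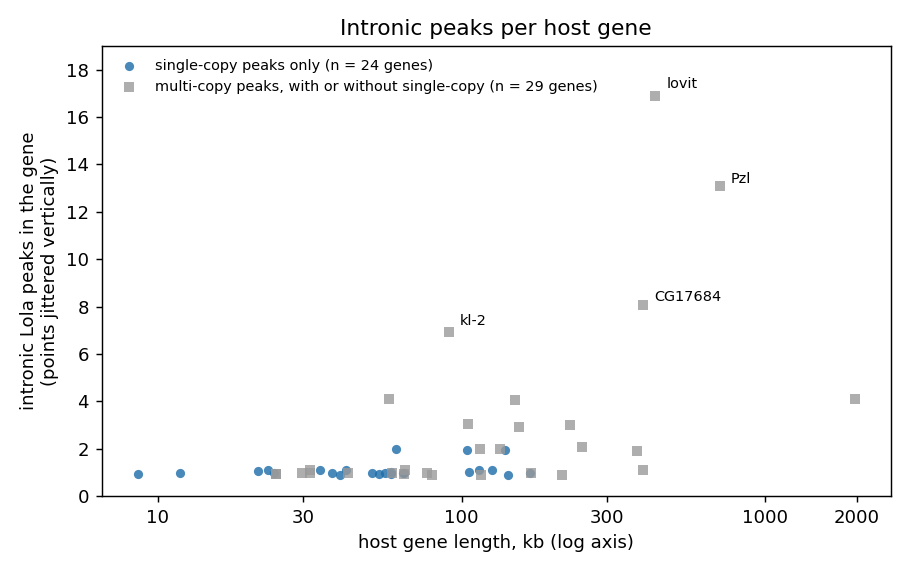
Number of intronic Lola peaks in each host gene against the length of the gene in kb (log axis). The host asRNA:CR45182, with 8 peaks, had no length in the reference and is not drawn. Blue circles are genes with single-copy peaks only and grey squares genes with multi-copy peaks; lovit, with 17 peaks, and Pzl, with 13, hold multi-copy peaks only.

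Those 5 hosts held multi-copy peaks only. The gene lovit, which encodes a histamine transporter of photoreceptors, had 17 peaks with fold enrichments of 1.30 to 1.62 over backgrounds of 144.074 to 208.334 fragments. The Piezo-like channel gene Pzl, 709421 bp long, had 13 peaks of 1.27 to 2.18. CG17684 had 8 peaks of 1.33 to 1.70, the antisense RNA asRNA:CR45182 had 8 of 1.41 to 2.56, and kl-2, a Y-linked dynein heavy chain gene needed for sperm, had 7 of 1.22 to 1.64. Of their 53 peaks, 1, in CG17684, held the word. Further genes with at least 3 multi-copy peaks were GEFmeso, CG32816, lncRNA:CR44999, kl-3, pyd, Myo81F and the ribosomal RNA pseudogene 28SrRNA-Psi:CR45859. Of the 12 Y chromosome fertility genes, 6 had a peak of this kind, against 160 of the 13968 protein-coding genes (1.15%), and none of the peaks in these Y genes was single-copy. This comparison takes no account of gene length. Those of the Y genes that host intronic peaks are 91086 to 248273 bp long, against a median of 2164.5 bp over all protein-coding genes.

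Transposable elements overlay most of these peaks. An annotated element overlapped 26 of the 28 multi-copy first-intron peaks and 46 of the 68 multi-copy later-intron peaks, against 1 of the 28 single-copy intron peaks. Single-copy peaks were chosen for few repeated words, so that contrast follows in part from the split. Elements also overlapped 47.7% of the 193 distal multi-copy peaks and 14.3% of the 21 promoter multi-copy peaks. Over all 423 deposited multi-copy peaks, histone repeat included, the share was 42.1%. Over the 117 multi-copy gene-body and flank peaks, not introns alone, the summit lay in gypsy in 23 peaks, in 3S18 in 22 and in 1731 in 15. All 3 are LTR retrotransposons. Fold enrichment was 1.27 to 1.62 in gypsy, 1.30 to 1.70 in 3S18 and 1.35 to 1.64 in 1731. Peaks in copies of 1 element share sequence and are not independent. Over all 117 multi-copy peaks the median background was 159.632 fragments, against 30.032 in the 132 single-copy ones, and 4 (3.42%) held the word.

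Exon peaks were few and mostly weak. The 13 single-copy exon peaks had a median fold enrichment of 1.76, and 3 held the word. Those 3 were the strongest. CG2121, in exon 4 of 6 (chr2R:8396631-8397126), had 210 fragments over 25.519 and a fold enrichment of 7.96 (6.92 to 9.10), and the authors assigned this peak to the neighbouring POU factor gene pdm3. CG11905, in exon 4 of 4 (chr3L:16930457-16930921), had 220 fragments over 31.791 and a fold enrichment of 6.74 (5.88 to 7.69). CG31869, in exon 7 of 7 (chr2L:10774134-10774374), had 88 fragments over 25.519 and a fold enrichment of 3.36 (2.70 to 4.13). The other exon peaks lay between 1.44 and 2.04, in genes that included the axon guidance genes robo2 and sli, the chromatin remodelling gene osa and the axonemal dynein gene Dhc93AB. The median GC content of the exon peaks was 57.5%, against 48.3% in single-copy later-intron peaks.

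Peaks annotated to UTRs carried the word in 2 of 9 single-copy cases. The strongest was assigned to Cib2 (chr2R:20884382-20884795, fold enrichment 5.07, 4.29 to 5.95), with its summit in a coding exon of otp. The 3′UTR peak of aos, the secreted inhibitor of the EGF receptor (chr3L:16470105-16470398), had 114 fragments over 26.380 and a fold enrichment of 4.20 (3.47 to 5.04). Its summit was 155 bp past the end of aos, in an intron of CG33158, and the peak held no AAAGCT. The third was the antisense RNA asRNA:CR45802, at 2.67 (2.10 to 3.35), with its summit in an intron of zormin. The 5′UTR peaks were assigned to CG32512 (2.45), bbg (2.06) and ap (1.56). The annotation is that of the whole peak. At the summit itself, 7 of the 132 single-copy peaks were in a 3′UTR and 3 in a 5′UTR.

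Peaks 1 to 3 kb from a TSS formed the main single-copy group, with 74 peaks. Of these, 37 lay upstream of the TSS of the assigned gene and 22 of them held the word. Another 17 lay downstream of the TSS within the gene (6 with the word), and 19 lay past the end of the assigned gene (8 with the word). The remaining peak was assigned to a gene absent from the reference annotation used. Upstream peaks included those of Alp13, an alkaline phosphatase (chr3R:10076676-10077037, 261 fragments over 47.348, fold enrichment 5.42, 4.78 to 6.12), of CG34342 (chr3L:5511951-5512332, 199 fragments, 7.13, 6.18 to 8.19) and of sll, a sulphate donor transporter of the Golgi (5.79, 4.97 to 6.70). The peak near asRNA:CR44106 reached 6.03. The peak of snu, an ABC transporter of the cuticle barrier, lay inside its own gene (chr3R:28677721-28678068, 176 fragments, 6.67, 5.73 to 7.73). Of the 39 peaks of this kind with a summit inside a protein-coding gene, 14 lay in a gene other than the assigned one, as did the peak of Got1, inside spin.

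Peaks outside genes could lie only on near flanks, since distal intergenic peaks and those within 1 kb of a TSS were left out by the choice of peaks. Of the 39 single-copy summits outside any gene, 22 were within 1000 bp past the end of a protein-coding gene, 20 of them reached a fold enrichment of 2 and 13 held the word. The share of the flanking sequence that lies so close to a gene end was not computed. The downstream peak of wdp, a leucine-rich repeat membrane protein gene, was 255 bp past its end (chr2R:22297789-22298137, 194 fragments over 25.519, fold enrichment 7.35, 6.36 to 8.46). That of SP1173 was 205 bp past its end (3.43, 2.77 to 4.21), and the peak annotated to CG18480 (4.90, 4.10 to 5.82) was 190 bp past the end of stol. The peak of CG15554, annotated as a promoter at 1 to 2 kb, was 214 bp past the end of that gene (5.83, 5.06 to 6.69). SkpA, which encodes the adaptor subunit of SCF ubiquitin ligases, had its peak in the same position (chrX:658118-658387). It was 358 bp past the end of the gene and 1183 bp from the nearest TSS, had 102 fragments over 25.519 and a fold enrichment of 3.88 (3.17 to 4.71), and held the word 5.5 bp from the summit.

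The word was present near 57 of the 132 single-copy summits (43.2%, 35.0 to 51.7), against 53.9% of promoter peaks (186 of 345, exact test, adjusted p = 0.0732) and 25.6% of distal peaks (10 of 39, exact test, adjusted p = 0.0927). Neither difference passed the test, and that against promoter peaks turned direction among peaks of at least 2-fold (64.0% against 62.7%) and among those with a −log10 p of at least 10 (69.3% against 66.7%). Flanking windows 300 bp away held it in 7.58% of the single-copy peaks. By fold enrichment, the share was 77.8% at a fold enrichment of at least 3 (42 of 54), 40.6% from 2 to under 3 (13 of 32) and 4.35% under 2 (2 of 46).

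Among the 132 single-copy peaks, those with a high background were all under 2-fold. The 132 were split, once the values were known, at 2 times the lowest background. The 102 with a lower background had a median fold enrichment of 3.06, and 57 (55.9%, 46.2 to 65.1) held the word. The share was 57.4% (51.9 to 62.8) in the 310 promoter peaks and 33.3% (19.2 to 51.2) in the 30 distal peaks of the same kind. The 30 with a higher background had a median fold enrichment of 1.56, none reached 2 although their heights ran from 86 to 301 fragments, and 0 of 30 held the word, which allows a share of up to 11.4% (Wilson). In the 35 promoter peaks with a higher background the share was 22.9% (12.1 to 39.0). Since the background is the denominator of the fold enrichment, a high background and a low fold go together in part by arithmetic. Another 16 single-copy peaks under 2-fold had a lower background, and 2 of them held the word. The higher-background peaks also had a higher GC content, with a median of 54.8% against 41.6%, and the part of GC content in this was not tested.

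**Figure D3:**
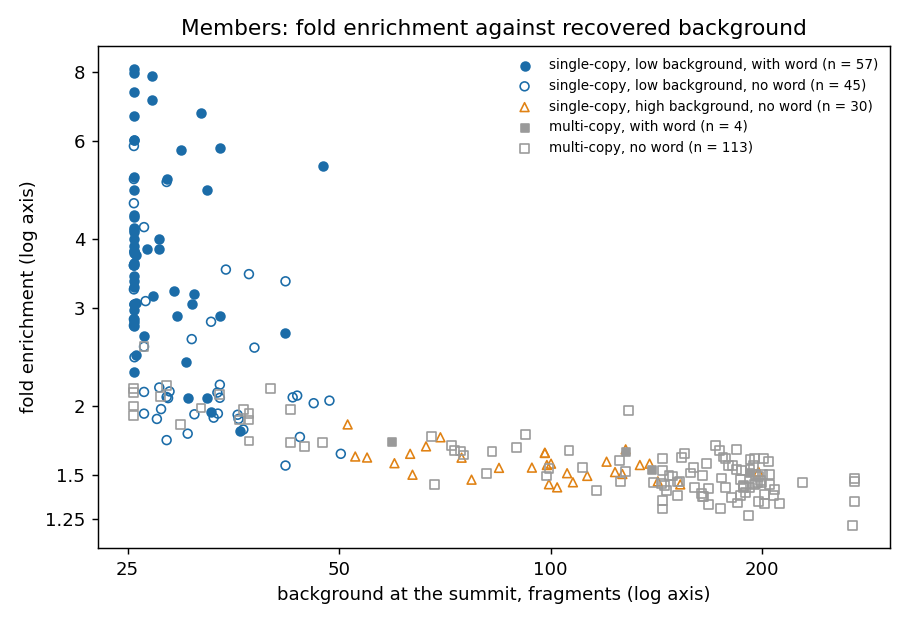
Fold enrichment (log axis) against the recovered background at the summit in fragments (log axis) for the 249 peaks. Filled symbols hold the word within 50 bp of the summit; all 57 filled single-copy peaks lie under 2 times the lowest background of 25.519.

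**Figure D4:**
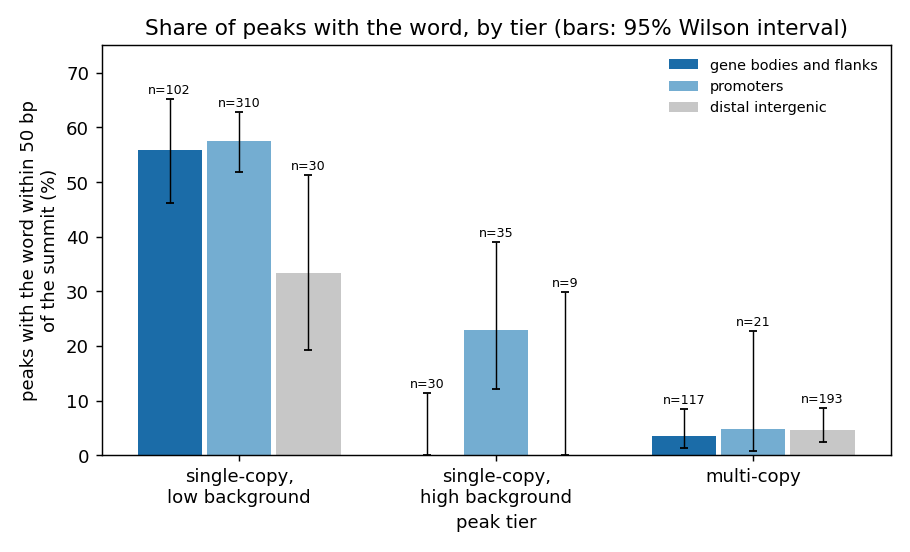
Share of peaks with the word within 50 bp of the summit, by copy class and background, for gene-body and flank peaks, promoter peaks and distal peaks. Bars are shares with 95% Wilson intervals; the first group stands at 55.9% for gene-body and flank peaks and 57.4% for promoter peaks.

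The higher-background single-copy peaks were gathered in a few places. Of the 30, 19 lay in 3 stretches, when peaks less than 100000 bp apart were joined. The stretch chr3R:20994950-21087093 held 9, in or near Calx, CG5697, Rlip, peg, Dhc93AB, Mvl and lncRNA:CR44178, with fold enrichments of 1.44 to 1.69. The stretch chr3L:613164-651025 held 5 around lncRNA:CR42719, lncRNA:CR43423 and CG3402 (1.49 to 1.67). The stretch chr2R:5707859-5751611 held 5, of which 4 were in ap, the LIM-homeodomain gene of the dorsal wing (1.43 to 1.65). All 15, 12 and 7 deposited peaks inside these stretches, those of other classes included, were single-copy with a higher background. These stretches thus hold all 4 peaks of ap and both peaks of CG5697, Dhc93AB and lncRNA:CR43423, so that several peaks in 1 gene went with a raised background there. The input values were not analysed here.

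Among the 102 single-copy peaks with a lower background, 73 held the word somewhere in the peak. The copy nearest the summit was at a median of 21.5 bp from it, against 23.5 bp in 240 promoter peaks and 50 bp in 20 distal peaks. With more copies in a peak the nearest tends to lie closer, and the distance expected from that was not computed. Several copies were common, with 49 of the 102 peaks holding at least 2 that did not overlap and 17 holding at least 4, against 176 and 24 of 310 promoter peaks. The base after the word was a C or a T in 56 of the 73 peaks (76.7%, 65.8 to 84.9), against 85.0% of 240 promoter peaks and 48.2% of 10033 genomic copies of the word, taken as 1 in 10 of all copies. C alone accounted for 37.0%, against 17.9% of the genomic copies.

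A single-copy peak was placed in or assigned to 122 of the 13968 protein-coding genes (0.873%), and the counts in the gene lists, which were chosen with earlier results known, are set beside that share. That share takes no account of gene length. The ecdysone list had 3 of 26 genes, which are 50703 to 113744 bp long, against a median of 2164.5 bp over all protein-coding genes. Among 37 genes of central carbon and lipid metabolism in the reference, 4 had one. They were Men, the malic enzyme (5.17, 4.34 to 6.10), Got1, an aspartate aminotransferase (3.83, 3.14 to 4.63), FASN1, a fatty acid synthase (3.05, 2.43 to 3.79), and Pepck2, of gluconeogenesis (3.05, 2.47 to 3.71). All 4 held the word. Among 19 BTB transcription factor genes it was chinmo, among 33 genes of EGFR and other receptor tyrosine kinase pathways aos, and among 23 blood cell genes srp, the GATA factor of blood cells (2.07, 1.67 to 2.54, no word). Among 17 SCF genes it was SkpA. None of the 30 Hippo, 13 JAK-STAT, 18 Notch, 21 Wnt or 23 insulin and TOR genes on the lists had one. The lists are partial, and a peak counts only for its host or assigned gene. The authors' paper counts scrib among Hippo components, and scrib was not on the Hippo list. It had a single-copy peak with its summit in a coding exon (2.18, 1.72 to 2.73, no word). The bHLH factor gene crp had peaks of 2.07 and 1.95, both with the word.

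A single-copy peak of this kind and a promoter peak were both found in 12 genes, which is 9.84% of the 122 genes and 4.05% of the 296 protein-coding genes with a promoter peak. Over all protein-coding genes, 2.12% had a promoter peak and 0.873% a single-copy peak of this kind. They included Eip75B, with 3 promoter peaks of up to 6.26, ftz-f1, with 2 of up to 8.88, and Eip74EF, with 1 of 1.97. CG5697, Dhc93AB, Mvl and ap were among them too, from the stretches of raised background.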

How the data were processed

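ChIP-seq was made from S2 cells with 1 Lola ChIP and 1 input library; input values were not analysed here. Per the submitters' processing notes, Bowtie2, SAMtools, MACS2 and ChIPseeker were used with build BDGP6; their versions and thresholds are not given in the sources used here. The deposited table gives each peak a fold enrichment, which is a ratio, a −log10 p, a further −log10 column that was not used for results, and positions and distances in bp. Per the labels nothing more is known of the authors' normalization.

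Coordinates were matched to the release 6 reference and the Ensembl 115 annotation: 927 of 939 assigned transcripts were found, 924 with the same start and end. Height and background were solved from fold enrichment and −log10 p, a step tested on simulated data. The class is the authors' annotation; downstream classes were pooled. Shares were compared by Fisher's exact test (2-sided) with Benjamini-Hochberg adjustment over 9 tests and a threshold of 0.05. Peaks are not replicates, so these p-values describe peaks of 1 library. The members, the gene lists, the word and the tests were chosen with earlier results of these data known, and the split by background was added later still. Genes were named when among the 3 single-copy peaks with the highest −log10 p of a class, when they had at least 2 single-copy or 3 multi-copy peaks, when on a gene list with a single-copy peak, and SkpA. Intron and exon peaks take the gene of the annotation, others the assigned gene. Alternatives covered stricter peak limits, joined peaks, other copy limits, word windows of 25 and 100 bp, and classes recomputed at the summit. Tests ran in scipy 1.17.1 and statsmodels 0.14.6 under Python 3.11.15, tables in pandas 2.3.3 with numpy 2.4.6, and plots in matplotlib 3.10.9.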

Additional observations from a re-analysis of the deposited data

How the results depend on the processing

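Of 52 alternative values of the share comparisons, 34 kept their direction and their side of the threshold, among them all those of the single-copy share against promoter and distal peaks. The 34 include values for first against later introns that rest on 2 single-copy first-intron peaks. With so few peaks these could hardly pass the threshold, so that they kept their side says little. No paired analysis was possible because there is 1 ChIP library, and for the same reason none could be left out. The lower share of peaks at 2-fold against promoter peaks (-19.5 percentage points) shrank to -0.73 points with −log10 p of at least 10, to -2.57 with a limit of 3-fold and to -7.30 with low backgrounds only (chosen after seeing the data), none of them past the threshold. The first of these could not decide the question, since a limit on −log10 p nearly fixes the share at 2-fold. With all peaks in place of single-copy ones, the share at 2-fold against distal peaks (10.6 points) and the share with the word against promoter (-26.6) and distal peaks (16.3) passed, as did the word within 100 bp against promoter peaks (-13.7). The share with the word against promoter peaks (-10.7) turned to 1.28 at 2-fold and above and to 2.67 with −log10 p of at least 10. The single-copy share of first against later introns (-21.0 points) was -17.9 with −log10 p of at least 10 and -12.9 with low backgrounds, neither past the threshold. It turned to 26.1 at 2-fold and above and to 6.95 with introns numbered at the summit. The last of these settings also took in peaks of other annotated classes. The share at 2-fold in first against later introns turned to -17.8 with all peaks. The share with the word in first against later introns (7.69 points, on 2 first-intron peaks) turned to -14.7 at 2-fold and above, -40.9 with −log10 p of at least 10 and -10.5 with all peaks, and was 0.0 with low backgrounds. Of 249 peaks, 93 remained at 2-fold (52 at 1 to 3 kb of a TSS, 25 in introns, 9 in exons or UTRs), 108 at −log10 p of at least 10 (55, 39 and 8, with 6 downstream) and 122 at a low background (39 in introns, 14 in exons or UTRs). Joining peaks under 1000 bp apart left 74 of 124 intron peaks and 194 of the 249 peaks. It raised the single-copy share of the latter from 53.0% to 67.5%. Recomputing classes at the summit gave 22 downstream peaks, against 10. What caused them was not tested. Heights of single-copy peaks began at 50 fragments, where counting error is widest.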
